A study of Homo sapiens with 4 samples.

Results

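A set of 10 Wnt pathway genes was followed in 2 human bladder cancer cell lines. They were the nuclear factors LEF1 and TCF7, the feedback inhibitors AXIN2, ZNRF3, NKD1 and NKD2, and the secreted DKK proteins DKK1 and DKK3. The others were the ligand WNT5A and the planar polarity gene PRICKLE1. These 10 genes, of the 32485 gene entries in the 2 deposited tables, were chosen by name as members of the pathway, and PRICKLE1 and DKK1 were chosen from their changes in these same libraries. RNA was sequenced from 4 libraries, 1 in each group: lentiviral SCD1 knockdown (shSCD1) in UMUC3 and in SW780, and the shNT cells of each line, whose genotype is given as WT. SCD1 (gene symbol SCD) is stearoyl-CoA desaturase, an enzyme that puts a double bond into saturated fatty acids. All cells grew in medium with fetal bovine serum, MEM for UMUC3 and DMEM for SW780. How many hairpins, clones or cultures stand behind a library is not given in the sources used here.

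Wnt proteins are lipid-modified ligands that carry a monounsaturated fatty acid, which the acyltransferase PORCN attaches before secretion. In the beta-catenin branch, a ligand that binds a Frizzled receptor and LRP5 or LRP6 stops the destruction complex, and beta-catenin then joins TCF and LEF factors at target genes. Several targets, AXIN2, ZNRF3, NKD1 and DKK1 among them, are inhibitors that feed back on the pathway. In the planar polarity branch, Frizzled, Dishevelled, Vangl and Prickle proteins orient cells without beta-catenin, and WNT5A often acts on this side.

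With 1 library per group no test was possible within a line, so "higher" and "lower" describe these libraries. Levels are CPM, the reads of a gene per 1000000 reads over all genes in the table of its line. The log2 ratio is log2((shSCD1 CPM + 1)/(shNT CPM + 1)); adding 1 CPM makes differences of low genes look smaller than they are. The size rule asks for a ratio of 1 or more, or −1 or less, on this scale, in a gene that reaches 1 CPM in the shSCD1 or the shNT library. Folds use plain CPM, and the exact (Clopper-Pearson) 95% interval beside each covers counting error alone. The tables name their libraries first and second: the first was read as shNT and the second as shSCD1, from the tables' names, and every direction in a line would turn round if its columns stood the other way. Since RNA was taken from bulk cultures, fewer cells expressing a gene and less RNA per cell cannot be told apart.

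The libraries held 22818368 to 34087871 reads. SCD stood at 59.6 CPM in UMUC3 shSCD1 and 264 CPM in UMUC3 shNT, and at 92.1 CPM in SW780 shSCD1 and 592 CPM in SW780 shNT. Of 16 epithelial and urothelial markers, 6 reached 1 CPM in UMUC3 (summed level 264 CPM in shSCD1, 536 CPM in shNT) and 13 in SW780 (10257 CPM in shSCD1, 12407 CPM in shNT), and their part in the results was not tested. The keratin gene KRT18 was present in both lines, while KRT19 had 0 reads in both UMUC3 libraries. EPCAM and CDH1 had no entry in the deposited UMUC3 table, so no level is given for them there. Of 10 fibroblast markers 4 reached 1 CPM in UMUC3 (summed level 14.0 CPM in shSCD1, 20.8 CPM in shNT) and 5 in SW780 (316 CPM in shSCD1, 202 CPM in shNT), where COL3A1 led the sum and DCN, PDGFRB and THY1 had 0 reads in both libraries. Endothelial markers summed to at most 5.71 CPM in any library, and among 8 blood cell markers CD68 alone reached 1 CPM.

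The bases just before the start of PRICKLE1 and DKK1 are shown because these genes had the lowest ratios of the 10. PRICKLE1 (ENSG00000139174) spans bases 42456757 to 42590355 of chromosome 12, minus strand, and DKK1 (ENSG00000107984) bases 52314296 to 52318042 of chromosome 10, plus strand, in GENCODE 29 on GRCh38. Each sequence is the 250 bases before the RefSeq start (GRCh38.p14), at chr12:42483616-42483865 on the minus strand and chr10:52314031-52314280 on the plus strand, written 5′ to 3′ with matches to the TCF/LEF motif in capitals. The RefSeq start of DKK1 lies 15 bases before the GENCODE start, while that of PRICKLE1 lies inside the GENCODE span, 106740 bases from its start, so the window is that of 1 transcript start and not of the outermost one.
PRICKLE1: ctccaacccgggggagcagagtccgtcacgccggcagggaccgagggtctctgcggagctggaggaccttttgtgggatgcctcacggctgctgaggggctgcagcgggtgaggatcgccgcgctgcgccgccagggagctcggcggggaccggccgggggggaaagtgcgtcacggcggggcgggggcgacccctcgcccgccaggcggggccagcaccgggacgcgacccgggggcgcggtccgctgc
DKK1: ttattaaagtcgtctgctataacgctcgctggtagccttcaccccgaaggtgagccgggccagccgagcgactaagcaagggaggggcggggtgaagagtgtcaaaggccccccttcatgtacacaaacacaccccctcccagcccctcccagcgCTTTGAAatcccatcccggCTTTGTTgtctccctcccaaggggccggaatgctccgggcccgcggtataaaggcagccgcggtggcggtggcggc

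The motif searched was CTTTGAA or, with another last base, CTTTGAT, and likewise CTTTGTA or, with another last base, CTTTGTT, on both strands, and a match is a description of letters, not of a bound site. The DKK1 window held 2 matches that do not overlap, both on the strand of the gene, which begin 95 and 76 bases before the start. The PRICKLE1 window held none. Of 35116 RefSeq windows of the same length, 12.0% held at least 1 match and 1.21% at least 2. RefSeq windows were at hand for 6 of the 10 genes (8 windows), and beside DKK1 1 of the 2 TCF7 windows held a match, on the opposite strand, beginning 50 bases before the start, while the windows of LEF1, NKD2 and WNT5A held none. AXIN2, ZNRF3, NKD1 and DKK3 had no window. The PRICKLE1 window was 77.2% G and C and the DKK1 window 62.8%.

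**Figure D1:**
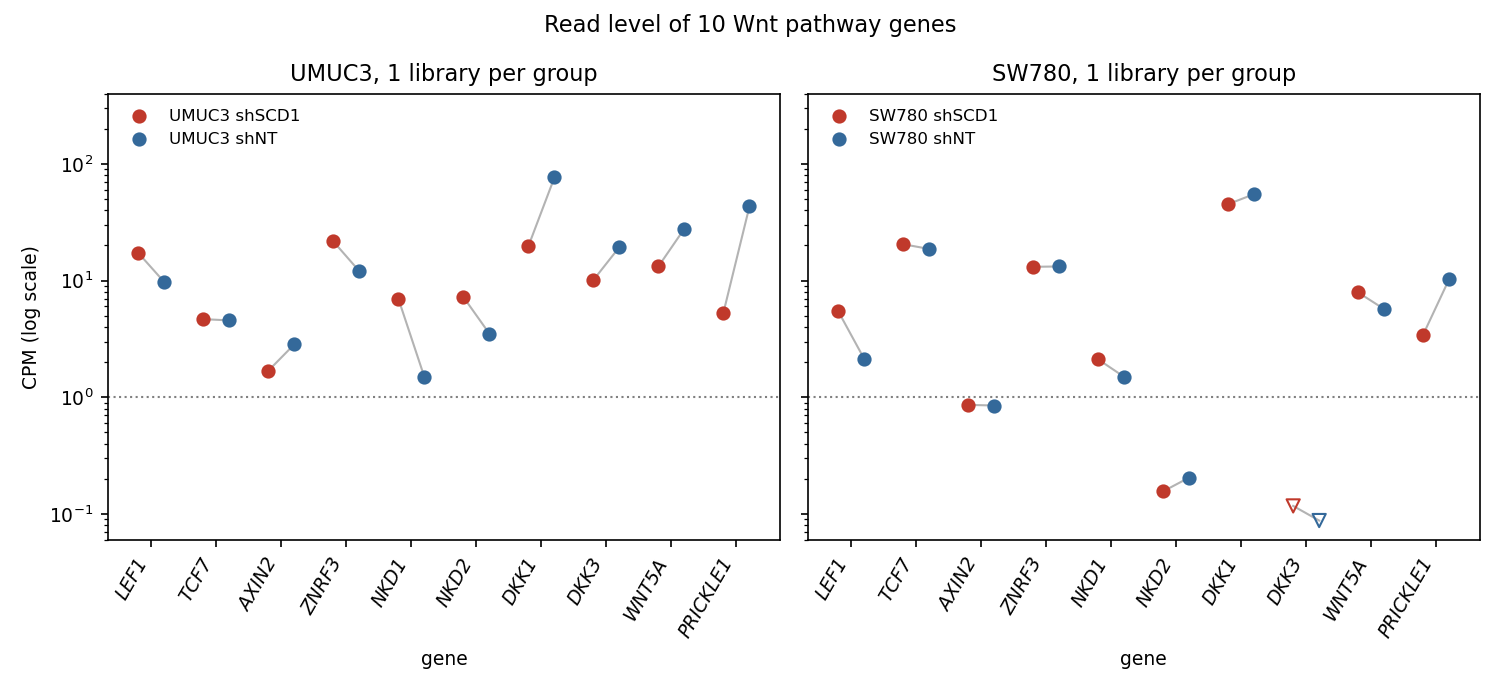
CPM on a log axis of each of the 10 genes in the shSCD1 (red, left) and shNT (blue, right) library of UMUC3 and SW780, 1 library per group, with grey lines joining the pair and a dotted line at 1 CPM. Open triangles mark fewer than 3 reads and are drawn at the level that 3 reads would give. PRICKLE1 stood at 5.32 CPM in UMUC3 shSCD1 and 43.1 CPM in UMUC3 shNT.

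In UMUC3, PRICKLE1, DKK1 and WNT5A were lower in the knockdown library by the size rule and NKD1 was higher. That is 3 lower of 10 members, where 2.18% of 14063 genes with at least 1 CPM were lower, and 1 higher, where 2.47% were. In SW780, PRICKLE1 was lower (1 of the 7 members that reached 1 CPM in at least 1 library, against 1.06% of 12880 genes) and LEF1 was higher (1 of 7, against 1.48%). PRICKLE1 alone was lower in both lines, as were 21 of 11152 genes measured in both (0.188%), and no member was higher in both, as were 4 genes (0.0359%). Because the list was drawn up with these results known, nothing is read from these shares. The median log2 ratio over the members with at least 1 CPM was −0.24 in UMUC3 and 0.13 in SW780, beside 0.04 and −0.01 over all such genes.

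The core planar polarity gene PRICKLE1, which encodes a LIM domain protein that works with Vangl proteins at the cell membrane, had the largest difference of the 10 genes in both lines. It had 173 reads (5.32 CPM) in UMUC3 shSCD1, against 984 reads (43.1 CPM) in UMUC3 shNT. That was 8.11-fold lower (95% interval 6.89 to 9.59), a log2 ratio of −2.80 and the 17th lowest of 14063. In SW780 it had 88 reads (3.44 CPM) in shSCD1, against 351 reads (10.3 CPM) in shNT. That was 2.99-fold lower (2.36 to 3.82), a log2 ratio of −1.35 and the 72nd lowest of 12880. The intervals of the 2 lines do not overlap, so the fold was larger in UMUC3 than in SW780 beyond counting error, which is no check of the spread between cultures.

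The authors' deposited tables give PRICKLE1 a GFOLD value (a log2 fold that GFOLD draws towards 0 where reads are few) of −2.83 in UMUC3 and −1.18 in SW780. By GENCODE 29, 23.6% of the exonic bases of PRICKLE1 lie in exons of genes on the plus strand, PPHLN1 and AC079601.1, and whether reads were counted by strand is not given in the sources used here. PPHLN1, a nuclear gene of a silencing complex, stood at 102 CPM in UMUC3 shSCD1 and 85.8 CPM in UMUC3 shNT, and at 97.7 CPM in SW780 shSCD1 and 102 CPM in SW780 shNT. Its log2 ratios were 0.25 in UMUC3 and −0.06 in SW780. The part of PPHLN1 reads in the level and folds of PRICKLE1 was not tested.

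The secreted antagonist DKK1, which blocks LRP5 and LRP6, had the highest level per kilobase of exon of the 10 genes in every library. In UMUC3 it had 642 reads (19.7 CPM) in shSCD1, against 1742 reads (76.3 CPM) in shNT. That was 3.87-fold lower (3.53 to 4.24), a log2 ratio of −1.90 and the 56th lowest of 14063. In SW780 it had 1153 reads (45.1 CPM) in shSCD1, against 1874 reads (55.0 CPM) in shNT. That was 1.22-fold lower (1.13 to 1.31) with a log2 ratio of −0.28, short of the size rule. The lines thus shared the direction, with intervals that do not overlap. The authors' deposited tables give GFOLD values of −1.88 and −0.15. An antisense gene, PRKG1-AS1, overlaps 9.61% of the exonic bases of DKK1 and had 22 reads in UMUC3 shSCD1 and 13 reads in UMUC3 shNT.

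DKK3, a secreted and divergent member of the same family, stood above the floor of 3 reads in UMUC3 alone. It had 329 reads (10.1 CPM) in UMUC3 shSCD1, against 442 reads (19.4 CPM) in UMUC3 shNT. That was 1.92-fold lower (1.66 to 2.22), and its log2 ratio of −0.87 was just short of the size rule, which the log2 fold change in the authors' deposited table, −1.02, would pass. SW780 gave it 0 reads in shSCD1 and 2 reads in shNT, both under the floor (0.117 CPM and 0.0880 CPM), so no fold is given.

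The ligand WNT5A, which binds ROR receptors and mostly acts without beta-catenin, went opposite ways in the 2 lines. In UMUC3 it had 430 reads (13.2 CPM) in shSCD1, against 636 reads (27.9 CPM) in shNT. That was 2.11-fold lower (1.86 to 2.39), and its log2 ratio of −1.02 was just past the size rule. The SW780 libraries held 202 reads (7.91 CPM) in shSCD1, against 194 reads (5.69 CPM) in shNT. That was 1.39-fold higher (1.14 to 1.70) with a log2 ratio of 0.41. WNT5A is also made by fibroblasts. Their listed markers summed to 14.0 CPM in UMUC3 shSCD1 and 20.8 CPM in UMUC3 shNT. In SW780, where COL3A1 led the sum, they came to 316 CPM in shSCD1 and 202 CPM in shNT. The part of these markers in the result was not tested.

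**Figure D2:**
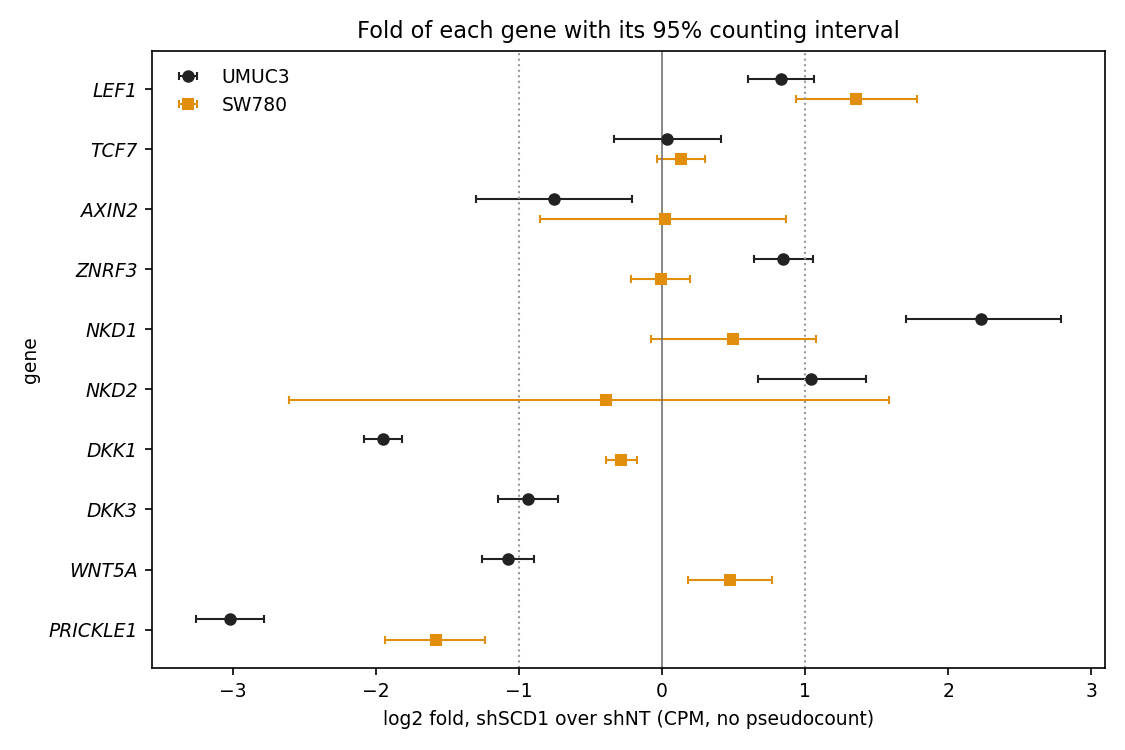
Log2 fold of CPM, shSCD1 over shNT, for each gene in UMUC3 (black circles) and SW780 (orange squares), with bars for the 95% counting interval and dotted lines at a 2-fold difference. DKK3 has no point in SW780, where it had 0 and 2 reads. PRICKLE1 lies to the left of the line at −1 in both lines, and the WNT5A intervals lie on opposite sides of 0.

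Of the feedback inhibitors, NKD1 passed the size rule in UMUC3, and NKD2, ZNRF3 and AXIN2, with log2 ratios of 0.87, 0.80 and −0.52, did not. NKD1, which binds Dishevelled and dampens the signal, had 227 reads (6.98 CPM) in UMUC3 shSCD1, against 34 reads (1.49 CPM) in UMUC3 shNT. That was 4.68-fold higher (3.25 to 6.93), a log2 ratio of 1.68 and the 39th highest of 14063. In SW780 NKD1 had 54 reads in shSCD1 and 51 reads in shNT, and the interval of the fold of 1.41 spanned 1 (0.945 to 2.11).

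Its relative NKD2 had 235 reads (7.22 CPM) in UMUC3 shSCD1, against 80 reads (3.51 CPM) in UMUC3 shNT. The fold was 2.06 (1.59 to 2.69), while the log2 ratio, with 1 CPM added, was 0.87. In SW780 NKD2 had 4 reads in shSCD1 and 7 reads in shNT, too few to show a difference (fold 0.762, 0.164 to 3.00). ZNRF3, a membrane ubiquitin ligase that removes Frizzled receptors, had 703 reads (21.6 CPM) in UMUC3 shSCD1, against 274 reads (12.0 CPM) in UMUC3 shNT, 1.80-fold higher (1.56 to 2.08). In SW780 it stood at 13.1 CPM in shSCD1 and 13.2 CPM in shNT, with a fold of 0.993 (0.860 to 1.15).

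AXIN2, a scaffold of the destruction complex and a widely used readout of beta-catenin activity, was weakly expressed. It had 55 reads (1.69 CPM) in UMUC3 shSCD1, against 65 reads (2.85 CPM) in UMUC3 shNT, 1.69-fold lower (1.16 to 2.46) with a log2 ratio of −0.52. AXIN2 in SW780 had 22 reads (0.861 CPM) in shSCD1 and 29 reads (0.851 CPM) in shNT, and the fold of 1.01 (0.554 to 1.82) leaves room for a difference of either sign. GENCODE 29 places 25.2% of its exonic bases in exons of AC004805.1 on the same strand, which had 0 reads in both SW780 libraries.

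Of the nuclear factors, LEF1 passed the size rule in SW780 and not in UMUC3, with a fold above 1 in both. In UMUC3 it had 560 reads (17.2 CPM) in shSCD1, against 221 reads (9.69 CPM) in shNT, 1.78-fold higher (1.52 to 2.09) with a log2 ratio of 0.77. In SW780 it had 140 reads (5.48 CPM) in shSCD1, against 73 reads (2.14 CPM) in shNT, 2.56-fold higher (1.91 to 3.44). Its SW780 log2 ratio of 1.04 was just past the size rule, and the intervals of the 2 lines overlap. The authors' deposited tables give LEF1 GFOLD values of 0.48 and 0.88. An antisense gene, LEF1-AS1, overlaps 5.20% of the exonic bases of LEF1 and had 15 reads in UMUC3 shSCD1 and 8 reads in UMUC3 shNT.

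TCF7, which encodes TCF1 and shares the HMG box of LEF1, showed no difference beyond counting error. It stood at 4.67 CPM in UMUC3 shSCD1 and 4.56 CPM in UMUC3 shNT (fold 1.02, 0.793 to 1.33), and at 20.5 CPM in SW780 shSCD1 and 18.7 CPM in SW780 shNT (fold 1.10, 0.975 to 1.23). SKP1, on the opposite strand, overlaps 2.09% of the exonic bases of TCF7. It stood at 246 CPM in UMUC3 shSCD1 and 236 CPM in UMUC3 shNT, and at 432 CPM in SW780 shSCD1 and 373 CPM in SW780 shNT. The part of SKP1 reads in the level of TCF7 was not tested.

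The counting interval of the fold lay above 1 for 4 and below 1 for 5 of the 10 members in UMUC3, where it lay above 1 for 35.9% and below 1 for 29.6% of genes with at least 1 CPM (65.5% in all). In SW780 it lay above 1 for 2 and below 1 for 2 of the 7 members with at least 1 CPM, beside 28.0% and 29.8% of such genes (57.8% in all). The authors' deposited tables give a GFOLD other than 0 to 9 of the 10 members with at least 1 CPM in UMUC3, where 60.7% of such genes have one. In SW780 they do so for 4 of 7, where 51.8% of genes have one.

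**Figure D3:**
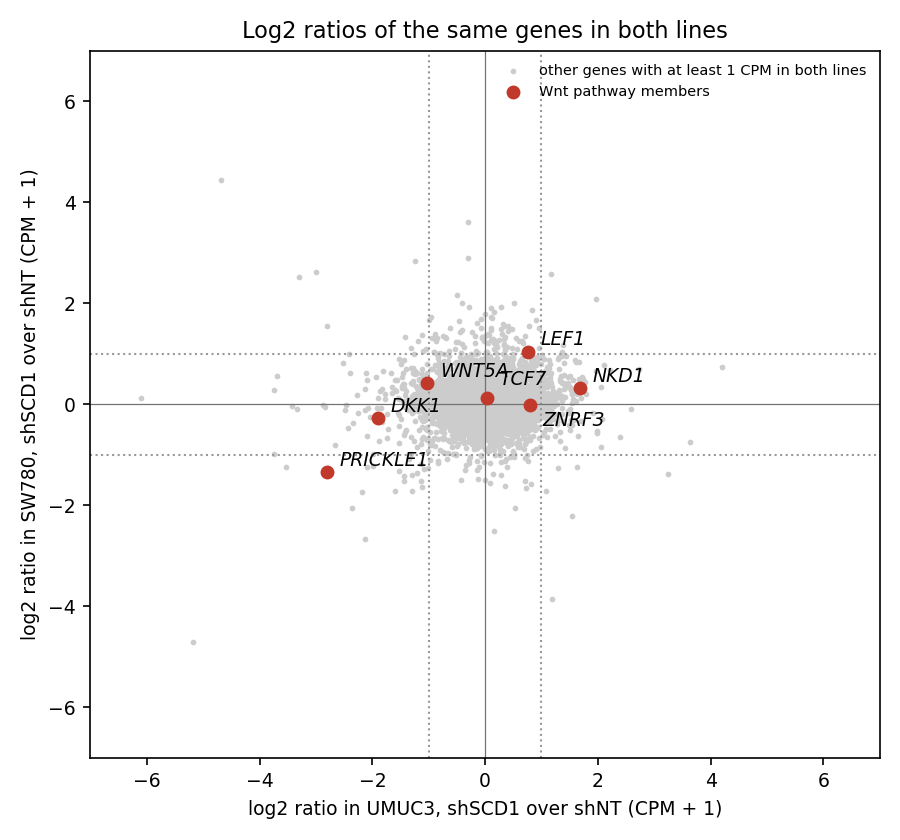
Log2 ratio in UMUC3 (horizontal) against that in SW780 (vertical) for the 11152 genes with at least 1 CPM in both lines (grey), with the 7 members among them named in red and dotted lines at −1 and 1. PRICKLE1 lies past −1 on both axes, DKK1 and WNT5A past −1 in UMUC3 alone, NKD1 past 1 in UMUC3 alone and LEF1 past 1 in SW780 alone.

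A count test over both lines was also run on the recovered reads, with cell line as a block, which leaves 1 residual degree of freedom. The quasi-likelihood test of edgeR called 0 of 13554 genes at an adjusted p of 0.05 (0.0%). An unadjusted p under 0.05 was seen for 418 genes, a share below 0.05, with LEF1 and PRICKLE1 among them. DESeq2 called 27 genes (0.199%), of which PRICKLE1 was the only member. PRICKLE1 was chosen from the same libraries, so this call is no independent evidence. The list that holds LEF1 was drawn up with these results known, so the unadjusted p of LEF1 is none either.

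The members also stood in a different order in the libraries. Per kilobase of merged GENCODE 29 exons, which only approximates the transcripts counted, DKK1 led the UMUC3 shSCD1 library at 8.94 CPM per kb. It was followed by LEF1 at 3.21, ZNRF3 at 3.10, NKD2 at 2.50, DKK3 at 2.00 and WNT5A at 1.79 CPM per kb, and then by PRICKLE1 at 0.645, TCF7 at 0.464, NKD1 at 0.400 and AXIN2 at 0.323 CPM per kb. In UMUC3 shNT, DKK1 at 34.6 CPM per kb was followed by PRICKLE1 at 5.23, DKK3 at 3.83, WNT5A at 3.77, LEF1 at 1.81, ZNRF3 at 1.72, NKD2 at 1.22, AXIN2 at 0.545, TCF7 at 0.453 and NKD1 at 0.0855 CPM per kb. PRICKLE1 thus stood seventh of 10 in the knockdown library and second in the control library. The counting intervals of neighbours overlapped for LEF1 and ZNRF3 and for DKK3 and WNT5A in both libraries. They also overlapped for NKD2 and DKK3, for TCF7 and NKD1 and for NKD1 and AXIN2 in shSCD1, and for AXIN2 and TCF7 in shNT.

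In SW780 shSCD1, DKK1 stood at 20.5 CPM per kb, TCF7 at 2.03, ZNRF3 at 1.88, WNT5A at 1.07, LEF1 at 1.02 and PRICKLE1 at 0.418 CPM per kb. In SW780 shNT, DKK1 stood at 24.9 CPM per kb, ZNRF3 at 1.89, TCF7 at 1.85, PRICKLE1 at 1.25, WNT5A at 0.769 and LEF1 at 0.399 CPM per kb. AXIN2, NKD1, NKD2 and DKK3 stayed at or under 0.165 CPM per kb in both. The intervals of TCF7 and ZNRF3 overlapped in both libraries, and those of WNT5A and LEF1 in shSCD1 alone.

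The members were also compared between the 2 control libraries, 1 per line, with intervals for counting error alone. The share of all genes that differ between these libraries was not computed, so nothing is read from how many members differed. The tables were scaled separately, so CPM over the 15415 genes in both tables is used here. PRICKLE1 stood at 44.5 CPM in UMUC3 shNT and 10.5 CPM in SW780 shNT, 4.24-fold higher in UMUC3 (3.75 to 4.80). WNT5A was 4.96-fold (4.22 to 5.85), LEF1 4.58-fold (3.50 to 6.05), AXIN2 3.39-fold (2.16 to 5.45), and NKD2 17.3-fold higher in UMUC3 (8.01 to 44.4). DKK1 differed less, with 78.7 CPM in UMUC3 and 56.0 CPM in SW780, a ratio of 1.41. DKK3 had 442 reads in UMUC3 and 2 reads in SW780, a ratio of CPM of 334 whose interval of 92.0 to 2769 rests on those 2 reads. TCF7 went the other way, with 4.70 CPM in UMUC3 and 19.0 CPM in SW780, 4.04-fold lower in UMUC3 (3.28 to 5.02). For ZNRF3 and NKD1 the interval spanned 1 (0.790 to 1.07 and 0.633 to 1.59).

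The rest of the pathway was described with 8 lists of 120 genes from textbook knowledge. Past the size rule in UMUC3 stood 2 receptors as higher and 1 as lower, 1 nuclear factor each way and 1 antagonist as lower. In SW780 1 ligand gene passed it, as higher. Shares called over all genes are those given above.

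Among Wnt ligands and their secretion genes, none of 7 with at least 1 CPM passed the size rule in UMUC3 (median log2 ratio −0.01), and 1 of 11 did in SW780 (median 0.22). WNT5B, the closest relative of WNT5A, had 1942 reads (59.7 CPM) in UMUC3 shSCD1, against 2498 reads (109 CPM) in UMUC3 shNT, a log2 ratio of −0.86. In SW780 it had 51 reads (2.00 CPM) in shSCD1, against 9 reads (0.264 CPM) in shNT, 7.56-fold higher (3.69 to 17.5). The directions were therefore opposite between the lines, as for WNT5A. WLS, which carries lipid-modified Wnt proteins to the surface, had log2 ratios of 0.29 in UMUC3 and −0.13 in SW780, and PORCN of −0.01 and 0.20.

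Of 14 receptor and co-receptor genes with at least 1 CPM in UMUC3, ROR1 was lower and FZD6 and FZD8 were higher by the size rule, with a median of 0.19. ROR1, a WNT5A receptor, had 348 reads (10.7 CPM) in UMUC3 shSCD1, against 885 reads (38.8 CPM) in UMUC3 shNT, 3.63-fold lower (3.20 to 4.12). FZD6 had 51 reads in UMUC3 shSCD1 against 4 reads in UMUC3 shNT, and FZD8 had 57 reads against 8 reads, so both were weakly expressed there. With ratios centred on their median over all genes, FZD8 no longer passed (0.99). In SW780 none of 14 passed, the median was −0.02, and ROR1 stood at 4.07 CPM in shSCD1 and 3.43 CPM in shNT. RYK, PTK7, LRP5 and LRP6, which have the highest mean CPM of the list over the 4 libraries, had log2 ratios between −0.37 and 0.44 in both lines.

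Of 12 nuclear factors, BCL9 was higher and TLE4 lower by the size rule in UMUC3, and none passed in SW780 (medians 0.11 and 0.11). BCL9, which links beta-catenin to Pygopus proteins, stood at 21.0 CPM in UMUC3 shSCD1 and 9.20 CPM in UMUC3 shNT, 2.28-fold higher (1.95 to 2.68). In SW780 it stood at 21.4 CPM in shSCD1 and 15.1 CPM in shNT, 1.42-fold higher (1.25 to 1.60). TLE4, a Groucho corepressor, stood at 4.58 CPM in UMUC3 shSCD1 and 10.8 CPM in UMUC3 shNT, 2.35-fold lower (1.91 to 2.91), and at 17.3 CPM in SW780 shSCD1 and 17.7 CPM in SW780 shNT.

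Of 5 other Wnt antagonists with at least 1 CPM in each line, SHISA2 was lower in UMUC3 by the size rule. It stood at 5.38 CPM in UMUC3 shSCD1 and 14.9 CPM in UMUC3 shNT, 2.76-fold lower (2.30 to 3.33). In SW780 it stood at 1.96 CPM in shSCD1 and 3.61 CPM in shNT, 1.84-fold lower (1.32 to 2.62). KREMEN1, a receptor of DKK1, had log2 ratios of 0.56 and 0.08, and the medians of the list were 0.15 and 0.08.

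No gene passed the size rule in the remaining lists in either line. The destruction complex and beta-catenin had medians of 0.14 over 14 genes in UMUC3 and 0.03 over 15 in SW780. Beta-catenin itself, CTNNB1, stood at 225 CPM in UMUC3 shSCD1 and 229 CPM in UMUC3 shNT, and at 381 CPM in SW780 shSCD1 and 419 CPM in SW780 shNT. Other beta-catenin targets had median log2 ratios of −0.09 over 6 genes in UMUC3 and 0.12 over 10 in SW780. In UMUC3, 3 were above 0 and 3 below, and in SW780, 8 were above and 2 below. CCND1, which encodes cyclin D1, stood at 0.45 and −0.40, and CD44, a hyaluronan receptor, at −0.22 and 0.30. MYC stood at −0.61 and −0.23, with counting intervals of the fold below 1 in both lines. JAG1 stood at 0.78 and 0.06, with intervals above 1 in both.

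The partners of PRICKLE1 in planar polarity also stayed within the size rule, with medians of 0.00 over 12 genes and 0.12 over 15. PRICKLE2, its closest relative, stood at 41.4 CPM in UMUC3 shSCD1 and 53.4 CPM in UMUC3 shNT, a log2 ratio of −0.36, and at 3.99 CPM in SW780 shSCD1 and 3.67 CPM in SW780 shNT, a log2 ratio of 0.10. VANGL1, a membrane partner of Prickle, had log2 ratios of 0.26 and 0.54, and SCRIB of 0.06 and 0.12. PRICKLE4 had 80 reads (3.13 CPM) in SW780 shSCD1, against 222 reads (6.51 CPM) in SW780 shNT. That was 2.08-fold lower (1.60 to 2.72), though its log2 ratio was −0.86. DAAM2 had 13 reads in SW780 shSCD1, against 56 reads in SW780 shNT, 3.23-fold lower (1.74 to 6.44) with a log2 ratio of −0.81. Neither reached 1 CPM in UMUC3. Of the 15 genes in SW780, 11 had ratios above 0 and 4 below. LGR4, an R-spondin receptor, was the 1 measured gene of its list, with log2 ratios of 0.39 and −0.24.

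**Figure D4:**
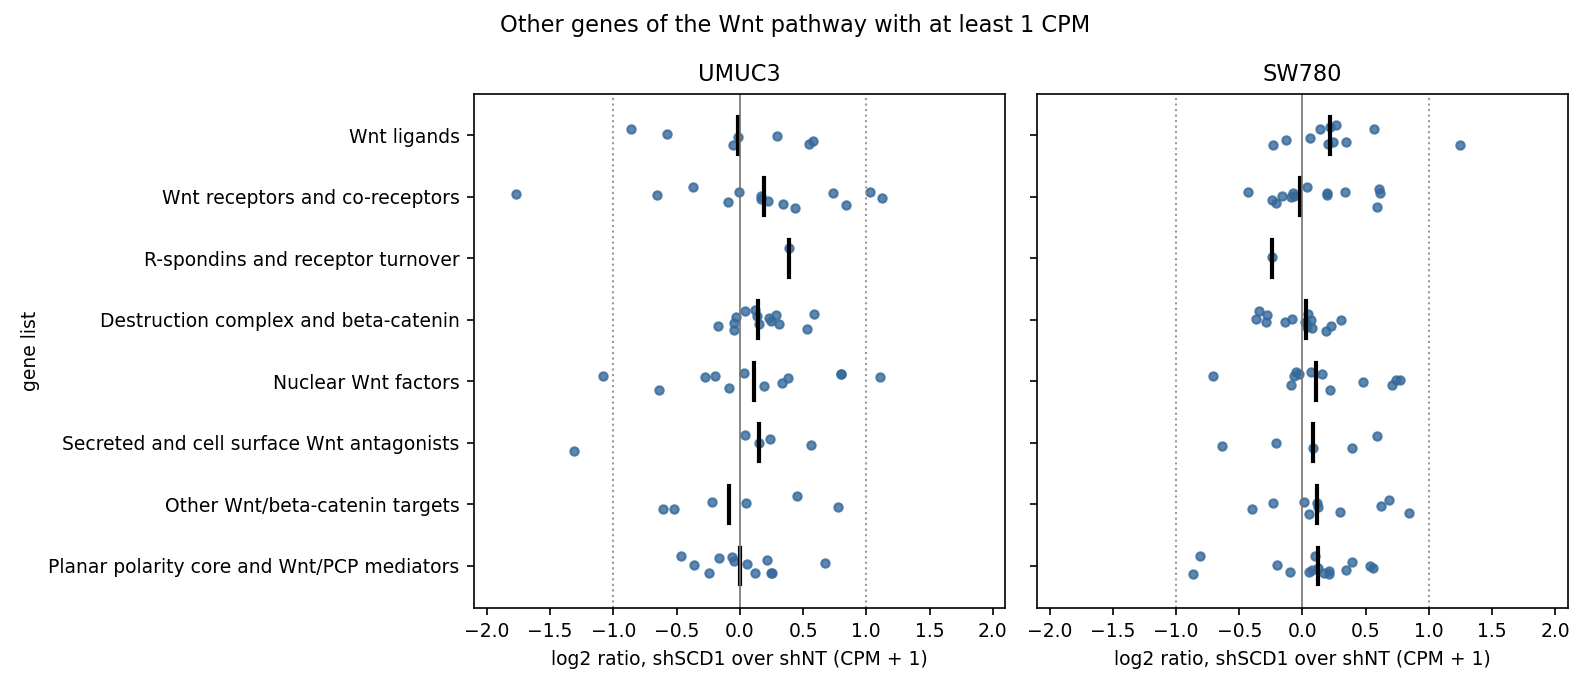
Log2 ratio, shSCD1 over shNT, of each gene with at least 1 CPM in the 8 lists of other Wnt pathway genes, in UMUC3 (left) and SW780 (right), with a black bar at each list's median and dotted lines at −1 and 1. The outermost point is ROR1 at −1.77 in UMUC3, and the list medians lie between −0.24 and 0.39.

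The genes whose pair of log2 ratios lay nearest to that of PRICKLE1, by Euclidean distance over 9551 protein-coding genes with at least 5 CPM in a library of each line, were CRISPLD2, COL5A1, PLK2, ST3GAL5 and ATP8B1. The distances were 0.563 to 1.01, and the measure rests on 4 libraries. CRISPLD2 had log2 ratios of −2.66 in UMUC3 and −0.80 in SW780, and COL5A1, a fibrillar collagen gene, of −2.09 and −1.24. Nearest to DKK1 were ADGRG6, LIMCH1, DDIT3, MYO5B and ACBD7, at distances of 0.0987 to 0.376. ADGRG6, an adhesion receptor gene, had log2 ratios of −1.82 and −0.34.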

How the data were processed

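RNA sequencing of TruSeq libraries on an Illumina NovaSeq 6000 was used, per the labels' protocols, with hg38 named in the submitters' processing notes. No source used here names the aligner, counter, annotation or strand setting. Per the file headers, the authors deposited per line 2 columns headed RPKM, a log2 fold change and a GFOLD value. The deposited signal in these columns holds reads brought to a common sum, with no gene length in it: 100% of values up to 20 reads and at least 99.9% of all values lay within 0.1 reads of a whole number of steps, so whole reads were recovered. The reading of the columns as shNT and shSCD1 rests on the table names; the lower SCD is the only check of it. AXIN2, NKD2 and DKK3 have no name in the SW780 table and were matched by Ensembl ID.

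Totals and CPM were taken over the genes of each table, and 3 reads served as the floor. These were 30148 genes in UMUC3 and 17752 genes in SW780. Intervals and floors cover counting error only, since no molecular identifiers are named and PCR copies are not independent molecules. edgeR 4.0.16 (TMM, quasi-likelihood test) and DESeq2 1.42.0, with Benjamini-Hochberg adjustment, were fitted to all 4 libraries with cell line as a term. They treat the 2 lines as the repeats of the knockdown. Python 3.11.15 and scipy 1.17.1 did the rest, and the computations were tested on simulated data. Members and lists were chosen with earlier results of these data known. The text names all members, listed genes past the size rule and some of the most abundant listed genes. PORCN, PRICKLE2, PRICKLE4, DAAM2, TLE2, SOX9 and the genes that overlap members were added after their values were seen.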

Additional observations from a re-analysis of the deposited data

Results flagged for a closer look

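The search took in the members, and listed genes past the size rule in a line, that went opposite ways in the 2 lines. WNT5A was lower in the knockdown library of UMUC3 and higher in that of SW780, with counting intervals off 1 in both. Its log2 ratio in UMUC3 minus that in SW780 was −1.43. WNT5B did the same, with a difference of −2.11, and had 9 reads in SW780 shNT. FZD6 went the opposite way, with a difference of 1.20; it had 4 reads in UMUC3 shNT, and its interval in SW780 ended just short of 1 (fold 0.953, 0.910 to 0.997). Listed genes short of the size rule were not searched, and some also went opposite ways. TLE2 had log2 ratios of 0.80 in UMUC3 and −0.71 in SW780, and SOX9 of −0.52 and 0.84. The share of all genes that do so was not counted. Counting intervals lay off 1 for 65.5% of genes in UMUC3 and 57.8% in SW780. With 1 library per group, none of these differences between the lines was tested.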

How the results depend on the processing

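Within a line no paired analysis was possible because each group holds 1 library. Over both lines the cell line block pairs the libraries. Without it edgeR also called 0 genes, with 11 at an unadjusted p under 0.05. With the block and no filter beyond 1 read, edgeR called 1 of 15241 genes and 0 of the members. No library was left out, since the joint fit would then have no residual degree of freedom. Of 140 alternative log2 ratios of the members, 130 differed from the reported value by less than the counting error of the plain fold. Another 10 moved further, and 0 of the ratios past the size rule changed sign. That error is taken without the added 1 CPM and is wide for genes with few reads. DKK3 in SW780 has no interval, so its values could not count as moved. Its log2 fold change by the authors was −1.16, against a ratio of −0.08. Members higher by the size rule in UMUC3 numbered 2 with a pseudocount of 0.1 CPM (NKD2 added), 0 with 5 CPM (NKD1 at 0.88), and 4 with a 1.5-fold rule. Members lower in UMUC3 numbered 4, with DKK3 added, by the authors' deposited log2 fold change and with a 1.5-fold rule, and 2, without WNT5A, with a pseudocount of 5 CPM, with a 3-fold rule and by GFOLD (−0.95). In SW780 the counts of higher (LEF1) and lower (PRICKLE1) members were both 0 with a pseudocount of 5 CPM and with a 3-fold rule, and by the authors' deposited GFOLD 0 members were higher, so LEF1 was not called there. With 0.1 CPM, 1 receptor, 1 nuclear factor and 2 planar polarity genes passed in SW780, against 0 each, and in UMUC3 centring left 2 receptors in place of 3. DESeq2 called 1 member over both lines, where edgeR called 0. All genes called higher and lower were 347 and 306 in UMUC3 and 191 and 136 in SW780. In UMUC3 they were 717 and 518 with a pseudocount of 0.1 CPM, 83 and 98 with 5 CPM, 1426 and 965 at 1.5-fold, 54 and 86 at 3-fold, and 639 and 627 by the authors' deposited log2 fold change. In SW780 they were 372 and 228, 77 and 65, 651 and 476, 52 and 41, and 396 and 236 under the same settings. By GFOLD they were 190 and 300 in UMUC3 and 168 and 112 in SW780, and among genes with at least 5 CPM 222 and 204 in UMUC3 and 141 and 102 in SW780. The cause was not tested. NKD2 (4 and 7 reads) and DKK3 (0 and 2 reads) had too few reads in SW780 shSCD1 and shNT to give a narrow interval.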
